A study of Mus musculus with 101 samples.

Results

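Copy number was compared between 29 KB1P and 25 KB2P mammary adenocarcinomas of mice, which make up 54 of the 101 samples in the series (98 tumours and 3 spleens). Members were all tumours whose labels give adenocarcinoma as the histology and KB1P or KB2P as the genotype, with no measured value used in the choice. In the mouse lines known by these names, Cre recombinase under the keratin 14 promoter deletes floxed Trp53 together with floxed Brca1 (KB1P) or floxed Brca2 (KB2P) in epithelial cells, so both groups share the deletion of Trp53 and differ in the Brca gene. The labels score every one of these tumours as 100% epithelial and give no age, sex or treatment. Of the KB1P tumours, 10 of 29 are titled KB1PM, which the labels do not explain, and 1 further KB1P tumour carries the name of another Brca1 allele in its description.

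Brca1 and Brca2 act in homologous recombination, the repair of double-strand breaks from an intact sister copy. Brca1 acts early, in favour of end resection and the recruitment of Palb2, and Brca2 acts later, once the ends have been resected. Trp53 encodes the transcription factor that halts or kills cells with damaged DNA. In human breast cancer, loss of BRCA1 is known for many small tandem duplications and loss of BRCA2 for small deletions, and both are known for many large rearranged segments. The comparison asks which gains, losses and breakpoints separate loss of Brca1 from loss of Brca2 in the mouse.

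Each tumour has a log2 ratio, a log2 segment value (the ratio after segmentation, 0 being neutral) and a whole-number copy score (2 being neutral) for each of 43513 genes. The median noise between neighbouring log2 ratios was 0.052 in KB1P and 0.049 in KB2P tumours, with ranges of 0.044 to 0.096 and 0.045 to 0.070 that overlapped. Read depth is unknown. The 29 KB1P tumours came from library series 5289 (8 tumours), 2766 (8), 2956 (1) and 3081 (1) or had no series number (11), and the 25 KB2P tumours from series 3196 (20) and 3499 (5). No numbered series held both genotypes, and the series of the 11 KB1P tumours without a number is unknown. The effect of genotype and that of the library series therefore cannot be told apart. None of the 3 spleens in the series, which are of other genotypes than KB2P, had a copy score other than 2 at any gene. KB2P replicates 10 and 12 had nearly the same profile (Pearson r = 0.986 over genes, against 0.671 for the next most similar pair of the 54). They belong to series 3196 and 3499, and whether both come from the same tumour was not tested. Each is counted among the 25 KB2P tumours and in its own series.

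The engineered genes were examined first, as a check of the labels. A deletion inside a gene lowers the ratio of that gene below the segment around it, so the log2 ratio minus the segment value was taken in every tumour, a measure added after the data were seen. At Brca1 (chromosome 11, chr11:101488761-101551955 in mm10) this difference was -0.32 at the lowest, -0.12 at the median and 0.0095 at the highest in KB1P tumours, against -0.26, -0.02 and 0.12 in KB2P tumours. It was below 0 in 28 of 29 KB1P tumours and in 15 of 25 KB2P tumours. At Brca2 (chromosome 5, chr5:150522297-150570147) the lowest, median and highest were -0.22, -0.04 and 0.08 in KB1P tumours, against -0.28, -0.14 and -0.03 in KB2P tumours. Here 22 of 29 KB1P tumours and all 25 KB2P tumours lay below 0.

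Brca1 and Brca2 thus differed in opposite directions between the genotypes. Brca1 averaged -0.14 ± 0.08 in KB1P and -0.02 ± 0.08 in KB2P tumours (SD, n = 29 and 25), and Brca2 averaged -0.05 ± 0.07 in KB1P and -0.15 ± 0.06 in KB2P tumours. Both differences passed a two-sided permutation test (adjusted p = 1.5e-05 for each over the 3 genes). The unadjusted permutation p was 1e-05 for each, the smallest the 100000 resamples can give. The groups overlapped at both genes, so a single tumour's value did not give its genotype. With KB2P series 3499 as the only KB2P tumours neither passed (exact permutation adjusted p = 0.145 for Brca1 and 0.0916 for Brca2). Trp53 (chr11:69580348-69591873), deleted in both lines, averaged -0.16 ± 0.11 in KB1P and -0.12 ± 0.12 in KB2P tumours, and its difference did not pass (permutation adjusted p = 0.217). The KB1P tumour with the other allele's name in its description had -0.21 at Brca1 and 0.05 at Brca2, inside the range of the KB1P tumours at each gene.

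**Figure D1:**
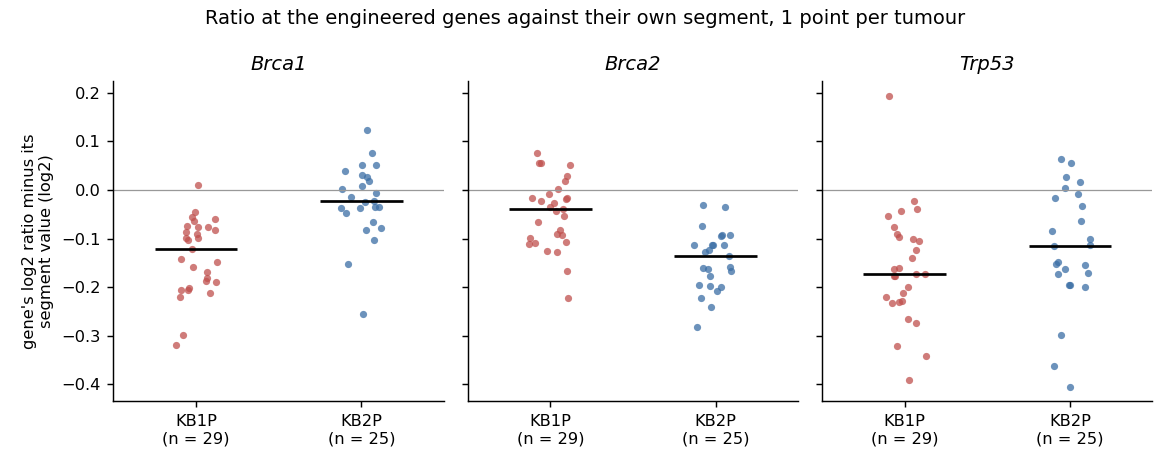
Each point is 1 tumour; the vertical axis is the log2 ratio of the gene minus the segment value around it (log2), for KB1P (left of each panel, n = 29) and KB2P tumours (right, n = 25), with bars at the medians. Brca1 lay lower in KB1P tumours (median -0.12, against -0.02 in KB2P), Brca2 lay higher in KB1P tumours (median -0.04, against -0.14 in KB2P), and Trp53 lay below 0 in most tumours of both.

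The segment values of the engineered genes, which describe the wider chromosome around them, did not pass the test between genotypes. Brca1 averaged 0.15 ± 0.30 in KB1P and -0.07 ± 0.32 in KB2P tumours (difference 0.22, SE 0.09, limma adjusted p = 0.325), and was gained in 11 of 29 KB1P and 4 of 25 KB2P tumours. Brca2 was gained in 14 of 29 KB1P and 15 of 25 KB2P tumours, and lost in 1 KB1P and in 0 KB2P tumours. Trp53 averaged 0.09 ± 0.29 in KB1P and -0.05 ± 0.32 in KB2P tumours (limma adjusted p = 0.585).

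The broad landscapes of both genotypes resembled each other. Over 32691 placed genes the mean segment values of KB1P and KB2P tumours had Pearson r = 0.832 and Spearman rho = 0.810, given as a description, since neighbouring genes share segments. Gains frequent in both included Pdss2 on chromosome 10, in 18 of 29 KB1P and 15 of 25 KB2P tumours, and Kl on chromosome 5, in 16 of 29 KB1P and 15 of 25 KB2P tumours. Pdss2 takes part in the synthesis of coenzyme Q, and Kl encodes the hormone co-receptor klotho. Losses frequent in both included Rdh12 on chromosome 12, a retinol dehydrogenase, in 16 of 29 KB1P and 13 of 25 KB2P tumours. Tox3 on chromosome 8, which encodes a chromatin-associated protein, was lost in 18 of 29 KB1P and 17 of 25 KB2P tumours. Bcat1 on chromosome 6, the cytosolic branched-chain aminotransferase, was gained in 18 of 29 KB1P and 18 of 25 KB2P tumours. Rb1 on chromosome 14, the retinoblastoma protein that restrains entry into the cell cycle, was lost in 15 of 29 KB1P and 13 of 25 KB2P tumours.

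**Figure D2:**
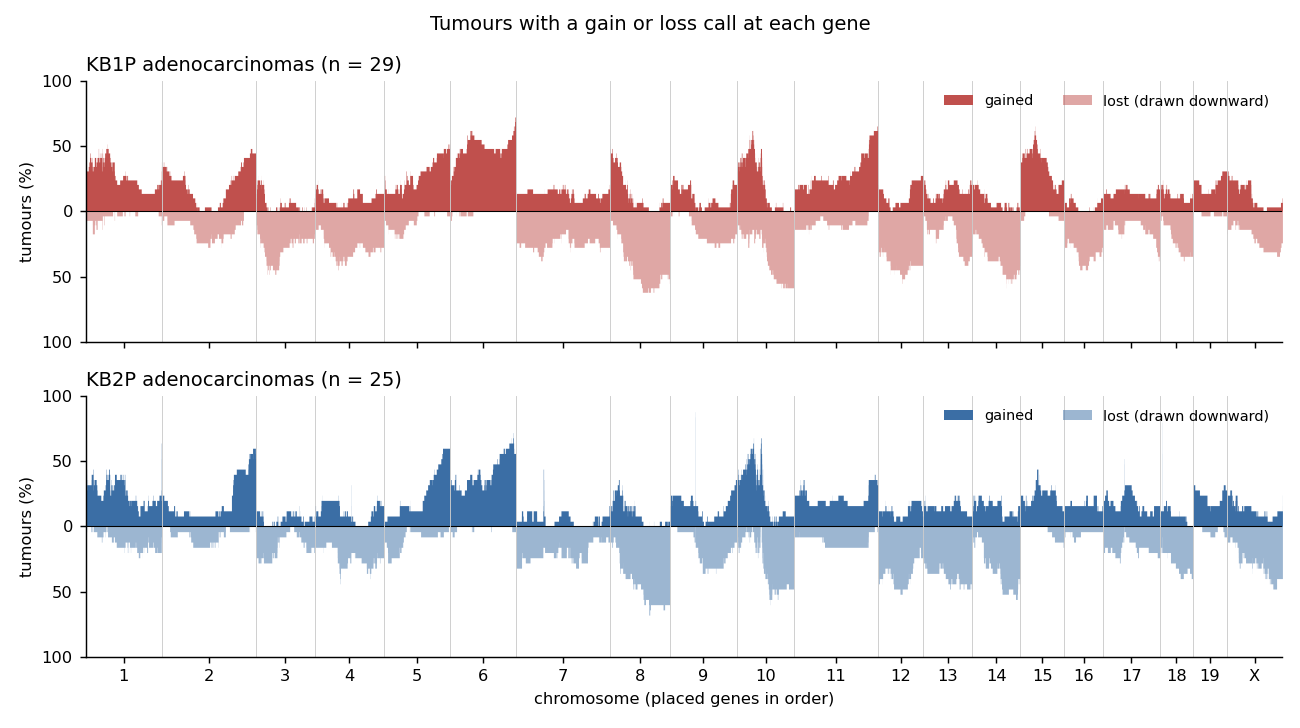
For each placed gene in chromosome order (horizontal axis), the percent of KB1P (top, n = 29) and KB2P tumours (bottom, n = 25) with a gain (upward) or a loss (downward, paler). Both panels share gains on chromosome 6 (18 tumours each at Bcat1) and losses on chromosomes 8 and 14; the loss on chromosome 16 stands out in the KB1P panel and the narrow spike on chromosome 9 in the KB2P panel.

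Of the 43513 genes, 4 differed in segment value at an adjusted p under 0.05 in limma, which is 0.00919% of those tested, and 4533 had an unadjusted p under 0.05. All 4 were lower in KB1P tumours. The 3 with a position (2900052N01Rik, Gm4791 and Gm31698) form 1 stretch of chromosome 9, chr9:46913603-47183682 in mm10, and Gm47153 has no position here but has the same values as Gm4791. The nearest gene of known role is Cadm1, which encodes a cell adhesion molecule and lies beyond the end of the stretch.

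2900052N01Rik had segment values of -0.76 at the lowest, -0.01 at the median and 0.97 at the highest in KB1P tumours, against 0.0025, 0.97 and 2.23 in KB2P tumours. It averaged -0.04 ± 0.31 in KB1P and 1.02 ± 0.51 in KB2P tumours (SD), a difference of -1.05 (SE 0.11, limma adjusted p = 5.15e-10). By copy score it was gained in 1 of 29 KB1P and 22 of 25 KB2P tumours (Fisher adjusted p = 8.95e-07), one of 4 genes (0.00919%) that passed the test of gain frequency. That test called 0 genes with KB1P series 5289 or KB1P series 2766 as the only KB1P tumours, or with KB2P series 3499 as the only KB2P tumours. Set against the mean of the flanking genes Gm22659 and Gm31816, all 29 KB1P tumours were at 0, while KB2P tumours had 0.45 at the lowest, 0.97 at the median and 1.11 at the highest. On that scale the groups did not overlap, and 0 of 29 KB1P and 24 of 25 KB2P tumours stood at least 0.5 above the flank mean. The lowest KB2P value, 0.45 in replicate 15, came from a step on 1 side only, so that tumour did not stand above both flanks.

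The edges of the stretch lay at the same genes in at least 24 of 25 KB2P tumours. A step up of 0.97 (median) lay between Gm31614 and 2900052N01Rik in 0 KB1P and 24 KB2P tumours. Gm31698 at the far edge took a value about midway, 0.49 above the flanks at the median, and steps down lay on both sides of it in 0 of 29 KB1P and 25 of 25 KB2P tumours. KB2P tumours of series 3196 and of series 3499 both carried it. Breakpoints lay in 20 and 5 tumours in the window that holds Cadm1, and in 19 and 5 in that of Gm22659. Of the 44 other tumours of the series, 1 differed from its flanks by over 0.1 at 2900052N01Rik, and the 3 spleens were at 0. No KB2P spleen was analysed here, so whether the stretch is present in normal KB2P tissue was not tested.

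Breakpoints were placed where the segment value changed between neighbouring genes, and 1 Mb windows were compared by the number of tumours with a breakpoint in them. Of 2088 windows, 9 passed (0.431%, Fisher adjusted p under 0.05), all 9 with fewer KB1P than KB2P tumours, and 52 had an unadjusted p under 0.05, of which 1 was more frequent in KB1P. The pair with the smallest p hold the edges of the stretch on chromosome 9, with 2 of 29 KB1P and 25 of 25 KB2P tumours in the window of Cadm1 (adjusted p = 8.71e-10), and 3 of 29 KB1P and 24 of 25 KB2P tumours in that of Gm22659 (adjusted p = 9.84e-08). The other 7 lie on chromosomes 3, 7, 8 and 18. With KB2P series 3499 as the only KB2P tumours 0 windows passed, with KB1P series 5289 as the only KB1P tumours 2, and with KB1P series 2766 alone 1.

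On chromosome 18, Thoc1 (chr18:9958180-9995484) encodes a subunit of the complex that exports spliced mRNA. It stood over 0.1 above the mean of its flanks Gm7523 and Rock1 in 2 of 29 KB1P and 19 of 25 KB2P tumours. A step on 1 side only also counts, as in KB2P replicate 17 (0.35). The difference from the flanks was 0 at the lowest, 0 at the median and 0.65 at the highest in KB1P tumours, against 0, 0.70 and 0.85 in KB2P tumours. The groups overlapped, since 6 KB2P tumours did not differ by over 0.1 and 1 KB1P tumour rose by over 0.5. Colec12 (chr18:9707648-9877995), which encodes a scavenger receptor, stood at the level of its flanks at the KB1P median (0) and 0.35 above them at the KB2P median. The window of Gm7527 had a breakpoint in 2 of 29 KB1P and 18 of 25 KB2P tumours (Fisher adjusted p = 0.000228), and that of Nutf2-ps2 in 3 KB1P and 19 KB2P tumours (adjusted p = 0.000297). By copy score Thoc1 was gained in 6 of 29 KB1P and 20 of 25 KB2P tumours, which did not pass over all genes (Fisher adjusted p = 0.158).

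On chromosome 3 the step was shallow and downward at the KB2P median, but not in every tumour. Ank2 (chr3:126921607-127500347), which encodes an ankyrin that anchors membrane proteins, differed from Ugt8a and Enpep by -0.33 at the lowest, 0 at the median and 0 at the highest in KB1P tumours, against -0.78, -0.19 and 0.28 in KB2P tumours. It differed from the mean of these flanks by over 0.1, in either direction, in 1 of 29 KB1P and 18 of 25 KB2P tumours. Among these, KB2P replicate 4 stood 0.28 above the flank mean and replicate 19 stood at -0.78. The window of Gm20568 had a breakpoint in 0 KB1P and 18 KB2P tumours (Fisher adjusted p = 3.45e-06), 16 of them of series 3196 and 2 of series 3499. The commonest single step in that window, between Ugt8a and Gm18916, was shared by 6 tumours. The window of Gm22293 had a breakpoint in 1 KB1P and 19 KB2P tumours (Fisher adjusted p = 8.43e-06).

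On chromosome 7 a shallow step down at the Siglec genes, which encode receptors for sialic acid, was followed by a step up near Gm33570. Klk8 (chr7:43797532-43803826), a serine protease gene beyond that step, lay at the level of Zfp715 before it, with a difference of 0, in all 29 KB1P tumours, against -0.28 at the lowest, -0.15 at the median and 0 at the highest in KB2P tumours. The window of Gm9278 had a breakpoint in 0 of 29 KB1P and 16 of 25 KB2P tumours (Fisher adjusted p = 4.04e-05), and that of Gm33570 in 0 KB1P and 11 KB2P tumours (Fisher adjusted p = 0.0122). The remaining window, at Hmgb1-rs17 on chromosome 8, had one in 1 KB1P and 12 KB2P tumours (Fisher adjusted p = 0.0469). Where only steps of at least 0.2 were counted, 4 windows passed, those of Cadm1, Gm22659, Gm7527 and Nutf2-ps2. None of the loci at Thoc1, Colec12, Ank2 and Klk8 differed from its flanks by over 0.1 in any of the other 44 tumours of the series.

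**Figure D3:**
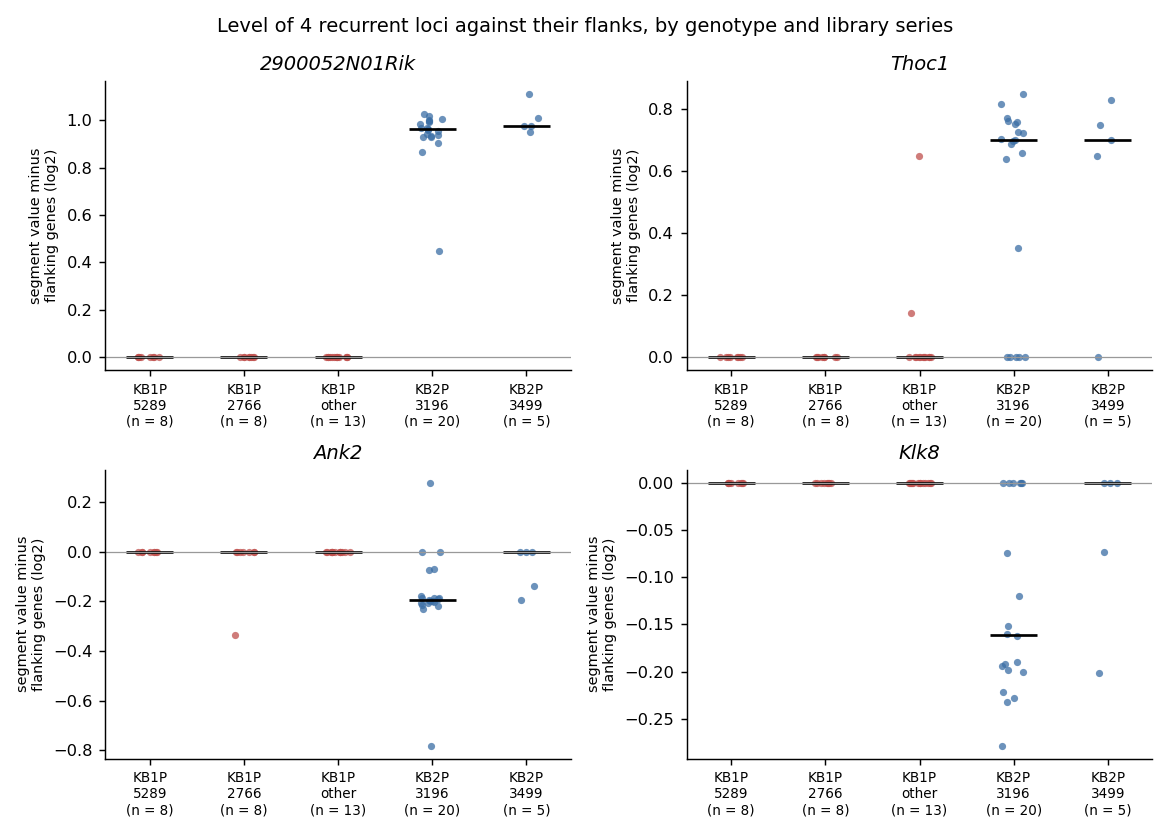
Segment value of a gene minus that of its flanking genes (log2, vertical axis) at 4 loci, with 1 point per tumour, grouped by genotype and library series (KB1P on the left, KB2P on the right; "other" holds the remaining KB1P series); bars are medians. At 2900052N01Rik all 29 KB1P tumours lie at 0, below all 25 KB2P tumours of both series, while at Thoc1, Ank2 and Klk8 the groups overlap at 0.

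Among whole chromosomes, chromosome 16 had the largest difference, lower in KB1P tumours. Its mean segment value was -0.78 at the lowest, -0.19 at the median and 0.28 at the highest in KB1P tumours, against -0.73, -0.0022 and 0.33 in KB2P tumours. The averages were -0.18 ± 0.25 in KB1P and 0.02 ± 0.21 in KB2P tumours, a difference of -0.20 (SE 0.06) that narrowly missed the threshold after adjustment over 20 chromosomes (permutation p = 0.00254, adjusted p = 0.0508). No chromosome passed (0 of 20, 0%). More than 50% of the genes of chromosome 16 were lost in 11 of 29 KB1P and 1 of 25 KB2P tumours, and no gene of it was lost in 9 KB1P and 20 KB2P tumours. A gain of more than 50% of its genes occurred in 0 KB1P and 4 KB2P tumours.

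The chromosome 16 difference was uneven over the KB1P library series. The mean was -0.30 ± 0.25 in the 8 KB1P tumours of series 5289, -0.22 ± 0.29 in the 11 without a number and -0.07 ± 0.16 in the 8 of series 2766, against 0.0061 ± 0.23 in the 20 KB2P tumours of series 3196 and 0.07 ± 0.10 in the 5 of series 3499. With series 5289 as the only KB1P tumours the difference was -0.32 and passed (exact permutation adjusted p = 0.0339), and with the other KB1P tumours alone it was -0.16 and did not pass (permutation adjusted p = 0.302). After each tumour was centred on its autosomal median the difference was -0.21 and passed (permutation adjusted p = 0.027). The difference kept its sign in all 10 alternatives tried.

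Gene by gene, 735 of the 1061 placed genes of chromosome 16 had an unadjusted p under 0.05 in limma, all 735 lower in KB1P tumours, and none passed over all genes. The smallest p was shared by 12 genes at chr16:43626137-44333212, from Tigit on, where the difference was -0.33 (SE 0.08, limma adjusted p = 0.0913). Tigit, an inhibitory receptor of T and natural killer cells, was lost in 13 of 29 KB1P and 1 of 25 KB2P tumours and gained in 0 KB1P and 6 KB2P tumours. Cep19, which encodes a centrosomal protein, shared with Tigit and other genes the largest excess of loss in KB1P tumours on this chromosome, with loss in 13 of 29 KB1P and 1 of 25 KB2P tumours (Fisher adjusted p = 0.105). A rank-sum test called 529 of the 37998 genes without ties, 402 of them on chromosome 16, all 402 lower in KB1P tumours. Neighbouring genes share segments, so these gene counts largely restate 1 broad change and are not independent of the chromosome mean.

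Chromosome 13 leaned the other way. Its mean segment value was -0.47 at the lowest, 0.00072 at the median and 0.42 at the highest in KB1P tumours, against -0.62, -0.27 and 0.36 in KB2P tumours, and the difference of 0.13 (SE 0.07) did not pass (permutation adjusted p = 0.299). The mean share of its genes that were lost was 19.2% in KB1P and 39.4% in KB2P tumours. Gm34307 on it was lost in 1 of 29 KB1P and 12 of 25 KB2P tumours (Fisher adjusted p = 0.105). Fancc, a subunit of the Fanconi anaemia core complex that acts in the repair of crosslinks, was lost in 1 of 29 KB1P and 11 of 25 KB2P tumours (Fisher adjusted p = 0.105). Its lowest segment value was -3.04 in KB1P and -1.03 in KB2P tumours, and its mean difference of 0.16 did not pass (limma adjusted p = 0.777). No gene passed the test of loss frequency (0 of 43513, 0%), while 3217 had an unadjusted p under 0.05. Chromosomes 1, 6 and 11 averaged 0.18, 0.35 and 0.12 in KB1P tumours, against 0.08, 0.23 and 0.0044 in KB2P tumours, with permutation adjusted p = 0.299 for each.

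**Figure D4:**
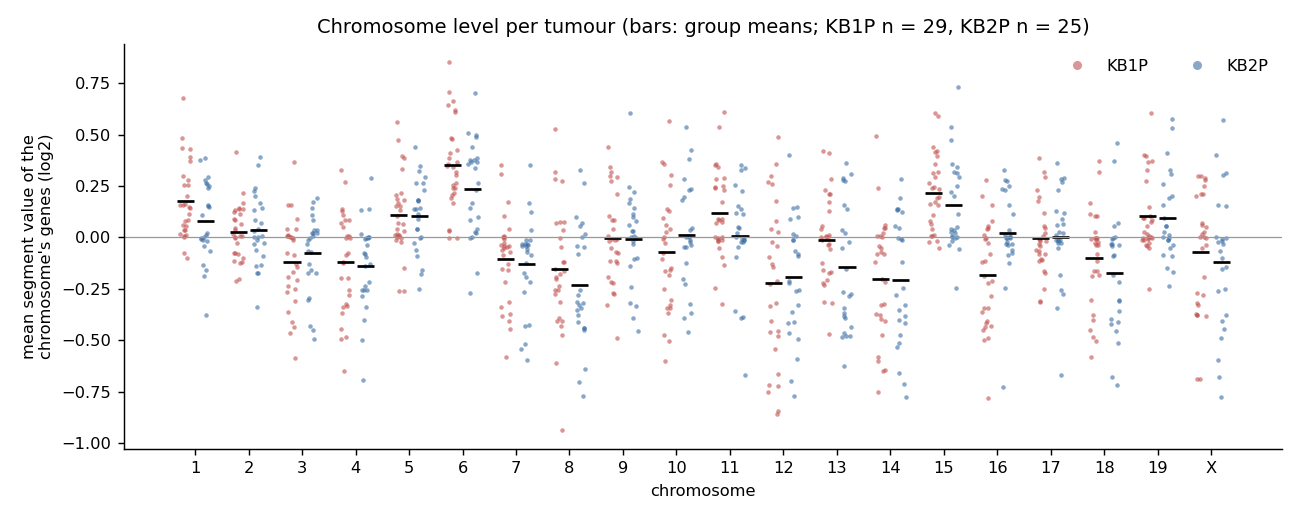
Mean segment value of each chromosome's placed genes (log2, vertical axis), 1 point per tumour, KB1P (left of each pair, n = 29) and KB2P (right, n = 25), with bars at the group means. Chromosome 16 shows the largest gap, with means of -0.18 in KB1P and 0.02 in KB2P tumours, and the points of both groups overlap on every chromosome.

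The 3 chromosomes with the largest excess of gain in KB1P tumours at any gene were 15, 8 and 11, each shown by 1 gene, and none of these genes passed over all genes (Fisher adjusted p = 1 for each). Dscc1 on chromosome 15, which helps to load the replication clamp for sister chromatid cohesion, was gained in 19 of 29 KB1P and 7 of 25 KB2P tumours. Retn on chromosome 8, which encodes the hormone resistin, was gained in 14 KB1P and 3 KB2P tumours. Fasn on chromosome 11, the fatty acid synthase, was gained in 19 KB1P and 8 KB2P tumours. In the other direction Glo1 on chromosome 17, which detoxifies methylglyoxal, was gained in 5 KB1P and 13 KB2P tumours (Fisher adjusted p = 1). Losses more frequent in KB1P tumours also included Gm17359 on chromosome 3 (13 KB1P and 2 KB2P tumours, adjusted p = 0.272) and Rgs3 on chromosome 4 (12 KB1P and 4 KB2P tumours, adjusted p = 0.817), and losses less frequent in KB1P tumours included Gm6550 on chromosome 1 (0 KB1P and 6 KB2P tumours, adjusted p = 0.272) and Gm10689 on chromosome 8 (5 KB1P and 9 KB2P tumours, adjusted p = 1).

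None of the 152 measured genes of the 9 lists of repair, checkpoint, cancer and drug transport genes passed the limma test, against 0.00919% of all genes. The median difference was 0.07 for 22 homologous recombination genes, 0.02 for 9 genes of the 53BP1 and shieldin pathway that limits resection, 0.07 for 12 Fanconi anaemia genes, 0.05 for 11 genes of PARP signalling and end joining and 0.04 for 12 genes of checkpoints and mitosis. It was -0.0020 for 42 oncogenes, 0.02 for 39 tumour suppressors and 0.16 for 2 drug transporters, against 0.03 over all genes.

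Among the repair genes, those with the smallest p lay on chromosomes 16, 13, 18, 11, 1 and 7. Polq, the polymerase of the end joining on which cells without homologous recombination depend, had segment values of -0.80, -0.11 and 0.28 (lowest, median, highest) in KB1P tumours, against -0.90, 0.00063 and 0.35 in KB2P tumours. It was lost in 12 of 29 KB1P and 1 of 25 KB2P tumours, and its difference of -0.25 (SE 0.08) did not pass (limma adjusted p = 0.164). The groups overlapped over most of their range. Slx4, a nuclease scaffold on the same chromosome, differed by -0.22 (limma adjusted p = 0.374). Parp1, the main sensor of single-strand breaks, differed by 0.19 (limma adjusted p = 0.385).

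Uimc1, which brings Brca1 to ubiquitin at breaks, differed by 0.18 (limma adjusted p = 0.462). Rbbp8, the resection factor CtIP, differed by 0.22 (limma adjusted p = 0.473). Ten1 and Ctc1, subunits of the complex that fills in resected ends, differed by 0.22 and 0.14 (limma adjusted p = 0.374 and 0.586). Fancf of the Fanconi core complex differed by 0.17 (limma adjusted p = 0.481).

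Abcg2 on chromosome 6, a pump that exports drugs from cells, had segment values of -0.03, 0.36 and 0.99 (lowest, median, highest) in KB1P tumours, against -0.45, 0.06 and 0.64 in KB2P tumours, and was gained in 17 of 29 KB1P and 9 of 25 KB2P tumours. The difference of 0.25 (SE 0.08) did not pass (limma adjusted p = 0.164). Abcb1b, which encodes P-glycoprotein, differed by 0.07 (limma adjusted p = 0.883). Erbb2, a growth factor receptor, was gained in 10 KB1P and 4 KB2P tumours (Fisher adjusted p = 1), and its segment value differed by 0.20 (SE 0.09, limma adjusted p = 0.437). Foxp1 and Map2k4, counted among the suppressors, differed by 0.21 and 0.16 (limma adjusted p = 0.348 and 0.497), Rad21 of the cohesin ring by 0.14 (limma adjusted p = 0.473) and Wee1, a brake on entry into mitosis, by 0.13 (limma adjusted p = 0.63). On chromosome 11 the segment values of Trp53, Ctc1 and Map2k4 had the same KB2P mean and SD (-0.05 ± 0.32). Those of Brca1 and Erbb2 on it also matched each other (-0.07 ± 0.32). Differences at the named genes of chromosome 11 are thus not independent.

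High-level gain, a segment value of at least 1, was seen at several listed genes in few tumours, and no test was made of these counts. Lin28b on chromosome 10, an RNA-binding protein that blocks let-7 maturation, reached it in 3 of 29 KB1P and 8 of 25 KB2P tumours. Its segment values were -0.60, 0.35 and 2.18 (lowest, median, highest) in KB1P tumours, against -0.45, 0.48 and 2.89 in KB2P tumours, and 16 tumours of each genotype had a gain. Its difference of -0.41 (SE 0.21) did not pass in limma (adjusted p = 0.5). Myc on chromosome 15, the transcription factor that drives growth, reached high-level gain in 0 KB1P and 4 KB2P tumours, with highest values of 0.90 in KB1P and 2.27 in KB2P tumours. Gain of Myc by copy score was seen in 14 of 29 KB1P and 11 of 25 KB2P tumours.

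Genes near the start of chromosome 8 went the other way, with Lig4, the ligase of end joining, and Ing1 at high-level gain in 4 KB1P and 0 KB2P tumours each, and Cul4a, a scaffold of ubiquitin ligases, in 4 KB1P and 2 KB2P tumours. These genes lie close together on the chromosome and are not independent. Pik3ca, the catalytic subunit of a growth-signalling lipid kinase, was at high-level gain in 3 KB1P and 0 KB2P tumours, Mre11a, a nuclease that begins resection, in 4 KB1P and 2 KB2P tumours, and Bard1, the partner of Brca1, in 3 KB1P and 1 KB2P tumours. Zfp217 reached it in 0 KB1P and 3 KB2P tumours and Dna2, a resection nuclease, also in 0 KB1P and 3 KB2P tumours. Yap1, the growth activator of the Hippo pathway, reached it in 1 tumour of each genotype. Deep loss, a segment value of at most -1, was seen at Rb1 in 3 KB1P and 2 KB2P tumours and at Rbl2, a related pocket protein, in 1 KB1P and 2 KB2P tumours.

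None of the 11 per-tumour measures passed the test between genotypes. The share of genes with a copy score other than 2 was 10.4% at the lowest, 36.2% at the median and 65.1% at the highest in KB1P tumours, against 18.6%, 31.0% and 62.6% in KB2P tumours. It averaged 38.7 ± 16.4% in KB1P and 37.0 ± 14.3% in KB2P tumours, with a 95% interval of the difference from -6.41 to 9.94 percentage points (permutation adjusted p = 0.884). Gained shares averaged 19.3 ± 13.9% and 17.9 ± 12.3%, and lost shares 19.5 ± 11.1% and 19.1 ± 6.17%, in KB1P and in KB2P tumours. The mean size of the segment value was 0.27 in both, and whole-chromosome changes averaged 1.1 ± 1.4 in KB1P and 0.96 ± 1.02 in KB2P tumours.

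Breakpoints numbered 30 at the lowest, 128 at the median and 320 at the highest in KB1P tumours, against 75, 172 and 455 in KB2P tumours. The means were 152 ± 89.8 in KB1P and 190 ± 90.1 in KB2P tumours (difference -37.9, 95% interval -86.0 to 10.2, permutation adjusted p = 0.562). These numbers include the breakpoints in the 9 windows described above, all 9 with fewer KB1P than KB2P tumours. KB1P tumours of series 5289 averaged 92.5 ± 61.4 breakpoints, those of series 2766 averaged 176 ± 93.8 and those without a number 173 ± 86.6, against 188 ± 94.4 in KB2P tumours of series 3196 and 196 ± 79.7 in those of series 3499. The SD within each genotype exceeded the difference between them. Large-scale transitions, steps between segments of at least 10 Mb after shorter ones under 3 Mb were taken out, averaged 20.8 ± 7.16 in KB1P and 23.6 ± 7.38 in KB2P tumours (permutation adjusted p = 0.562).

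Short internal segments were those under 10 Mb that stood at least 0.2 above or below both neighbours. The neighbours also had to lie within 0.2 of each other. Short gains numbered 0 at the lowest, 9 at the median and 32 at the highest in KB1P tumours, against 3, 14 and 40 in KB2P tumours, with means of 11.0 ± 8.08 in KB1P and 15.3 ± 9.40 in KB2P tumours. The difference of -4.25 had a 95% interval from -8.96 to 0.47 and did not pass (permutation p = 0.0835, adjusted p = 0.562). The stretch on chromosome 9 did not meet the definition, since Gm31698 at its far edge stood 0.49 above the flanks at the KB2P median. Without segments bounded by a recurrent position, a step shared by at least 10 tumours, the difference was -2.59 (permutation adjusted p = 0.67). Short losses averaged 8.38 ± 6.87 in KB1P and 10.4 ± 7.26 in KB2P tumours (permutation adjusted p = 0.67). Pooled over tumours, short gains had a median of 0.69 Mb in KB1P and 0.67 Mb in KB2P tumours, and short losses 0.98 Mb and 1.15 Mb in KB1P and in KB2P tumours. A change that holds no gene start cannot be seen in values given per gene, so duplications and deletions below the spacing of genes were not measured.

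High-level gain regions numbered 3 at the median in KB1P and 9 in KB2P tumours, with means of 7.52 ± 9.10 in KB1P and 10.8 ± 9.60 in KB2P tumours (permutation adjusted p = 0.571). Deep loss regions averaged 2.28 ± 2.74 in KB1P and 1.88 ± 2.35 in KB2P tumours (permutation adjusted p = 0.884). A p that misses the threshold does not show that the genotypes are alike, and the intervals above give the sizes of difference these 54 tumours allow.

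**Figure D5:**
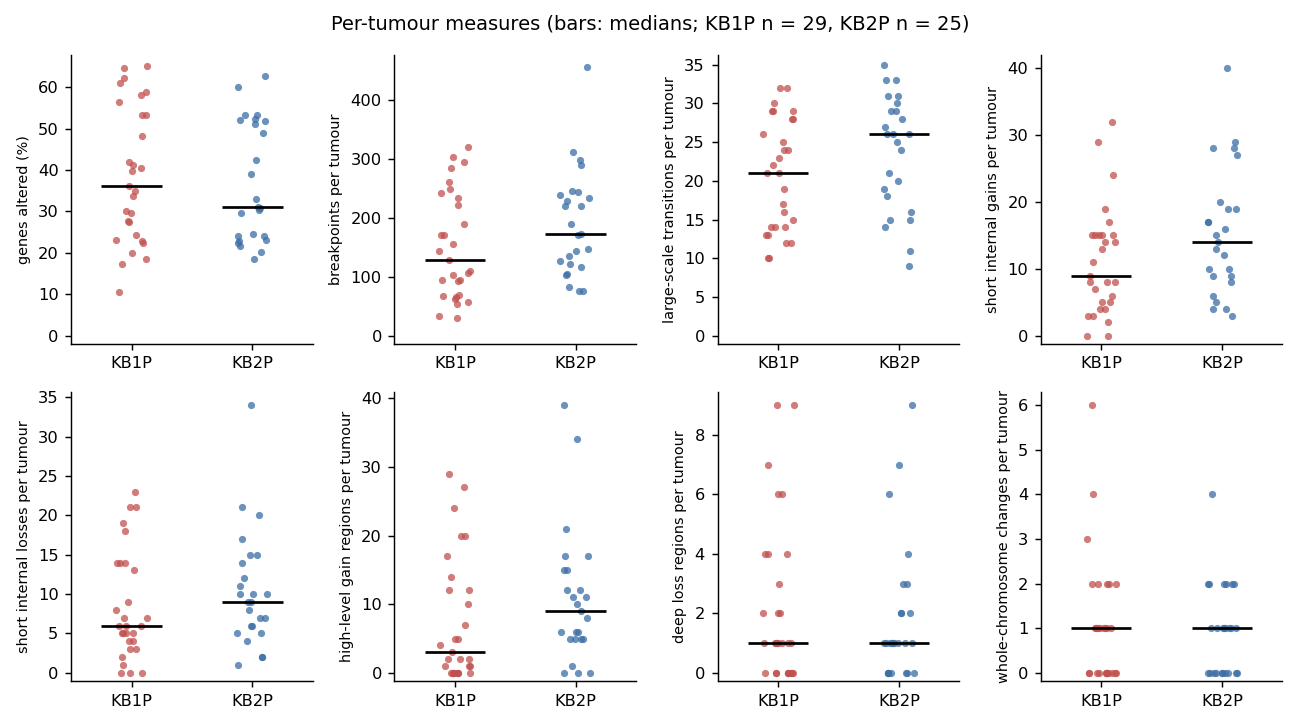
Per-tumour measures, each with its own vertical axis starting at or just below 0, for KB1P (left, n = 29) and KB2P tumours (right, n = 25); points are tumours and bars are medians. The groups overlap over most of their range in every panel, with medians of 128 and 172 breakpoints and of 9 and 14 short internal gains in KB1P and in KB2P tumours.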

How the data were processed

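Copy number came from shallow whole-genome sequencing. The labels' protocols give alignment by BWA, read counting per 20 kb bin, and correction for GC content and for mappability. The submitters' processing notes name cutadapt 2.5, BWA 0.7.17, SAMtools 1.10, Picard and the build mm10, although a human build appears in the protocol. The authors deposited, for each gene symbol, a log2 ratio, a log2 segment value and a whole-number copy score, of which 2 is neutral. Neither the segmentation method nor the reference of the ratios nor the rule that ties bins to genes is stated in the labels. Neutral scores went with segment values up to 0.32 and loss scores with values of -0.42 or below; of 480125 gain scores, 40 had a segment value under 0.3.

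Gene positions were taken from RefSeq (GRCm38.p6): 32661 symbols matched, 30 more matched by an older symbol, and the 10822 unmatched ones were used in gene-wise tests alone. Genes were ordered by start.

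Segment values were fitted with limma 3.58.1 (R 4.3.3; package data.table, version 1.17.8) over the 54 tumours with no covariate, as KB1P minus KB2P. Gains, losses and breakpoint windows were tested with Fisher's exact test. Chromosome means and 11 measures per tumour were tested by permutation with 100000 resamples, enumerated exactly for groups under 10. All tests were two-sided. Benjamini-Hochberg adjustment ran over all 43513 genes, the windows, the 20 chromosomes or the 11 measures. Before transitions were counted, segments differing by under 0.1 were joined; a whole-chromosome change had no such step and a mean of at least 0.2 in size. Other software was Python 3.11.15 with pandas 2.3.3, SciPy 1.17.1, NumPy 2.4.6 and matplotlib 3.10.9. The code was tested on simulated data.

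Genes were named by rule. The rule took the engineered genes, up to 6 called genes of each list or else the 2 with the smallest p, 1 gene for each called region, the largest frequency difference on each of 3 chromosomes in each direction, up to 8 windows, and list members that reached a segment value of 1 or -1 in 2 or more tumours, of which a part is described. Tigit, Tox3, Bcat1, Kl, Pdss2, Rdh12, Colec12, Ank2, Klk8, the window at Hmgb1-rs17 and the measure at the engineered genes were picked once their values were known. Members and lists were chosen with earlier results of these data known. Abcb1a, Aurka, Cdkn2b, Mll3 and Shld3 had no values. Nothing in the labels states that each tumour is from its own animal, and the tests reflect only the variation among these samples.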

Additional observations from a re-analysis of the deposited data

Results flagged for a closer look

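The log2 ratios before segmentation entered the comparisons above only at Brca1, Brca2 and Trp53, where they were set against the segment value. In limma they called 201 of 43513 genes (0.462%), 84 higher and 117 lower in KB1P tumours, of which 4 were also called on segment values. Of these, 50 lay on chromosome 16 and 40 on chromosome 7. Described here are the genes with the smallest p on 5 different chromosomes among those called on the log2 ratio and not on the segment value, a choice made after the data were seen. The same measure in the 3 spleens gives their background.

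Mrgprb13 on chromosome 7 (chr7:48311304-48312323), of the Mas-related receptor family, had log2 ratios of -0.68 at the lowest, -0.05 at the median and 0.87 at the highest in KB1P tumours, against 0.51, 1.31 and 1.63 in KB2P tumours. The difference was -1.29 (SE 0.09, limma adjusted p = 8.8e-17), against 0.13 (limma adjusted p = 0.622) in segment value, and the spleens lay between -0.05 and 0.18. Gm7622 on chromosome 13 (chr13:61665886-61667234) averaged 0.12 ± 0.36 in KB1P and -1.74 ± 1.07 in KB2P tumours (difference 1.86, limma adjusted p = 1.81e-10), with the spleens between -0.07 and 0.16. Cd300c on chromosome 11, a receptor of myeloid cells, differed by 0.69 (limma adjusted p = 1.04e-07) and the olfactory receptor gene Olfr250 on chromosome 9 by 0.67 (limma adjusted p = 2.37e-05). Gm15331 on chromosome 17 differed by -0.49 (limma adjusted p = 0.000999). At Mrgprb13 the means were -0.15 and -0.06 in KB1P series 5289 and 2766, against 1.29 and 1.07 in KB2P series 3196 and 3499. What these differences come from was not tested.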

How the results depend on the processing

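Each result was recomputed with other subsets of tumours and other settings. Genes differing in segment value numbered 3 or 4, each among the 4 of the report, in 13 of 17 alternatives; they numbered 60 after centring on the autosomal median, 201 on log2 ratios, 866 with all tumours in the fit (325 higher and 541 lower in KB1P, 406 of them on chromosome 16) and 529 by an exact rank-sum test over the 37998 genes without ties. With library series as a random effect 4 genes passed. Genes differing in gain frequency numbered 0 with KB1P series 5289 alone, with KB1P series 2766 alone and with KB2P series 3499 alone, where few tumours remain. One chromosome (1), number 16, passed without KB1PM titles and the conflicting label, with KB1P series 5289 alone, after centring, and after centring and scaling. Breakpoint windows numbered 2 with KB1P series 5289, 1 with series 2766, 0 with KB2P series 3499 and 4 with steps of at least 0.2.

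Differences that changed sign, none past the threshold, were these (KB1P minus KB2P). The altered share was -4.52 with KB1P series 5289, -10.6 with KB2P series 3499, -2.70 at a segment value beyond 0.5 and -0.42 without KB1PM titles and the conflicting label. The gained share was -5.28, -8.81 and -2.66 with series 5289, with series 3499 and without those titles. The lost share was -0.90 with series 2766, -1.80 with series 3499, -2.62 beyond 0.2 and -3.00 beyond 0.5. Whole-chromosome changes were -0.20 without series 5289, -0.21 with series 2766, -0.70 with series 3499 and -0.0069 at a mean of 0.3. Deep loss regions were -0.26 with series 2766 and -0.36 at a limit of -0.8. The mean size of segment value was 6.36e-05 without 1 of the 2 near-identical profiles, 0.0048 without series 5289, 0.00089 with series 2766 and 0.0078 with series 3196. Abcb1b was -0.11 with series 5289 and -0.040 without the titles, Lin28b 0.014 with series 2766, and the loss frequency of Gm10689 1.5 points with series 5289. The causes were not tested. The differences at Brca1 and Brca2 against their segments passed in the other subsets and not with KB2P series 3499 alone (permutation adjusted p = 0.145 and 0.0916, exact).

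No paired analysis was possible because the tumours carry no number that pairs KB1P with KB2P.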
